A study of Mus musculus with 6 samples.

Results

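Interferon-stimulated genes are the genes that cells switch on when an interferon binds its receptor, and 47 of them were followed here in organoids of mouse small intestine. They were taken by symbol, and the list was chosen with earlier results of these data known. Each of the 47 was found once among the 27179 genes listed. The organoids are budding cultures of intestinal epithelium, here of genotype WT, grown in Matrigel with the medium Intesticult. They received the thyroid hormone T3 at 1e-07 M (3 libraries) or its vehicle (3 libraries), in either case for 17 h before the RNA was taken. The study asked how transcript levels respond to T3, and the labels name no strain, age or sex, and no separate cultures or animals behind the libraries, so each p-value below covers just the variation among these 6 libraries, and that variation may be technical.

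Interferons of type I and type III signal through the kinases Jak1 and Tyk2 to a complex that holds Stat2 and Irf9 and binds a DNA element called ISRE. Interferon-gamma, the type II interferon, acts through Jak1 and Jak2 and a DNA element called GAS. In the gut epithelium this programme is known for holding back enteric viruses and for limiting microbes that live inside cells. The 47 genes were split by role into 12 antiviral sensors, 13 antiviral effectors, 11 genes of signalling and other roles, and 11 interferon-gamma type GTPases, the guanylate-binding proteins (Gbp) and immunity-related GTPases that act on the vacuoles of intracellular microbes.

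Promoter sequence was searched for the cores of the ISRE and the GAS, which some of these genes hold and others lack. The genes were listed as interferon-stimulated, so the shares below describe the list and are no independent result. The RefSeq promoter table (GRCm38.p6, from 250 bases before to 50 bases after each start) held 38 promoters of 35 of the 47 genes. The core of the ISRE, spelled GAAA, then any 2 bases, then GAAA, was found on either strand in 22 of the 38 promoters (57.9%), against 3.44% of all 32851 promoters in the table. TTCNNNGAA, the GAS core, which reads the same on both strands, was in 12 of the 38 (31.6%), against 8.30% of all promoters. By class, ISRE letters stood in 8 of 10 GTPase promoters, 6 of 9 sensor promoters, 6 of 13 effector promoters and 2 of 6 promoters of the signalling and other class. The GAS letters stood in 5 of the 10 GTPase promoters, each of which also held the ISRE letters. For 6 genes, the 150 bases that end just before the RefSeq start are shown, in which capitals mark the ISRE letters on either strand. The genes of the first 4 rose with T3 and the genes of the last 2, Igtp and Oas1a, did not pass the test.
Isg15, chr4:156200819-156200968, minus strand: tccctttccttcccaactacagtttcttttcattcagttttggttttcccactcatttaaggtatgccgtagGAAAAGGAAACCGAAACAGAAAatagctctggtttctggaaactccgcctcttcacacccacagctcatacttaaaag
Ifit1, chr19:34640739-34640888, plus strand: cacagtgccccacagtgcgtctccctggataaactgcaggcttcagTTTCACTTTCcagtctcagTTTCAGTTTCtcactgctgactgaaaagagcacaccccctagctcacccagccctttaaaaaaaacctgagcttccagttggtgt
Bst2, chr8:71537473-71537622, minus strand: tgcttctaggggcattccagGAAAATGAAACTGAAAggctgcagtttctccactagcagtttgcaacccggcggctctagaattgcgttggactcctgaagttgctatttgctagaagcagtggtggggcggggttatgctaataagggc
Irgm1, chr11:48871421-48871570, minus strand: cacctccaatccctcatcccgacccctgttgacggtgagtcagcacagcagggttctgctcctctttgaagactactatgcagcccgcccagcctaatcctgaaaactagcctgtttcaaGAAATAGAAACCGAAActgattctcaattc
Igtp, chr11:58199406-58199555, plus strand: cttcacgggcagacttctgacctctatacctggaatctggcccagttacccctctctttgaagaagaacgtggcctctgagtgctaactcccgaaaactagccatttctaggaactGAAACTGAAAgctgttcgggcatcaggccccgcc
Oas1a, chr5:120907526-120907675, minus strand: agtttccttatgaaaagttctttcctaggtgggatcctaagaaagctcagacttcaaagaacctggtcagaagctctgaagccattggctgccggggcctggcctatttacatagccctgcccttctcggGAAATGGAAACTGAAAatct
In Isg15 the capitals are 3 overlapping matches that start 78, 72 and 66 bases before the gene's start, and in Ifit1 they are 2 matches at 104 and 85 bases. Bst2 (130 and 124 bases), Irgm1 (30 and 24 bases) and Oas1a (20 and 14 bases) each hold a pair of overlapping matches. Igtp has a single match at 34 bases, with GAS letters starting 45 bases before the start. For Bst2 and Irgm1 the RefSeq start lies a little upstream of the start in the deposited gene model, and for the other 4 the starts coincide. The window held for Ifi47 starts from a RefSeq start 10468 bases upstream of the deposited one, so it says nothing about the sequence next to the measured gene's start.

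All 6 libraries carried the marks of epithelium, although 6 of the 8 epithelial markers were themselves called higher with T3 and 1 lower, where 24.0% of all tested genes were called higher and 20.8% lower. Epcam, an adhesion protein of epithelia, read 38654 to 39458 normalized reads (reads per gene, scaled between libraries) with vehicle and 43854 to 44612 with T3. Lgr5, a marker of intestinal stem cells, fell 2.19-fold (5094, 4285 and 4140 to 2093, 2469 and 1658, adjusted p = 8.3e-05). Alpi and Vil1, an enzyme and a structural protein of the enterocyte brush border, rose 2.27-fold and 1.56-fold. Whether these shifts have a part in the results below was not tested. Klf9, a direct target of T3 in many tissues, rose 6.08-fold, from 352 ± 20.3 to 2144 ± 60.8 (SD, n = 3), which checks the exposure. Libraries held 28197080 to 29974091 normalized reads in all. T3 replicate 3 stood apart, with a mean chi-square per gene of 13.9 and 14.9 against the other T3 libraries and 5.07 between those. Vehicle replicate 1 stood apart to a lesser degree, with 8.13 and 9.92 against the other vehicle libraries and 4.89 between those.

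T3 raised most of the interferon-stimulated genes that could be tested. Of the 47 genes, 33 reached 10 normalized reads in at least 3 libraries and entered the test (limma on log2 of value + 1), and 24 were higher, 1 was lower and 8 were not called at an adjusted p under 0.05. Over all 13052 genes tested, 24.0% were called higher and 20.8% lower. Of the 33, 6 genes, Zbp1, Oas3, Isg15, Xaf1, Rtp4 and Cxcl10, reached 10 reads only in T3 libraries, so their presence in the count is no evidence of direction. The same holds for Rsad2, which among vehicle libraries reached 10 reads in replicate 2 only (12 reads). Among the 22 genes with a mean of at least 50 normalized reads over the 6 libraries, a limit set on both groups together, 17 were called higher and 1 lower, where 26.3% of all tested genes with such a mean were called higher. The median log2 fold change of the 22 was 0.71, beside -0.01 over all genes tested. Of the 33 genes, 16 were called at least 2-fold higher, where 3.45% of all tested genes were. Rsad2 and the 6 genes that reached 10 reads with T3 alone are among the 16. Every T3 library lay above every vehicle library at 25 of the 33 genes and below at 2, where these shares over all genes were 28.4% and 26.5%. The 6 genes that reached 10 reads with T3 alone are among the 25, and for them the filter itself fixed this order. Rsad2 is among the 25 too. The background moves with the scaling between libraries, from 3135 higher and 2716 lower as deposited to 2607 and 3473 with upper-quartile scaling and 2432 and 3855 with equal column totals, while the count of interferon-stimulated genes called higher stayed at 23 or 24. As in any bulk RNA measurement, more cells that express a gene cannot be told apart from more RNA per cell. Without T3 replicate 3, 23 genes were called higher and 1 lower.

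**Figure D1:**
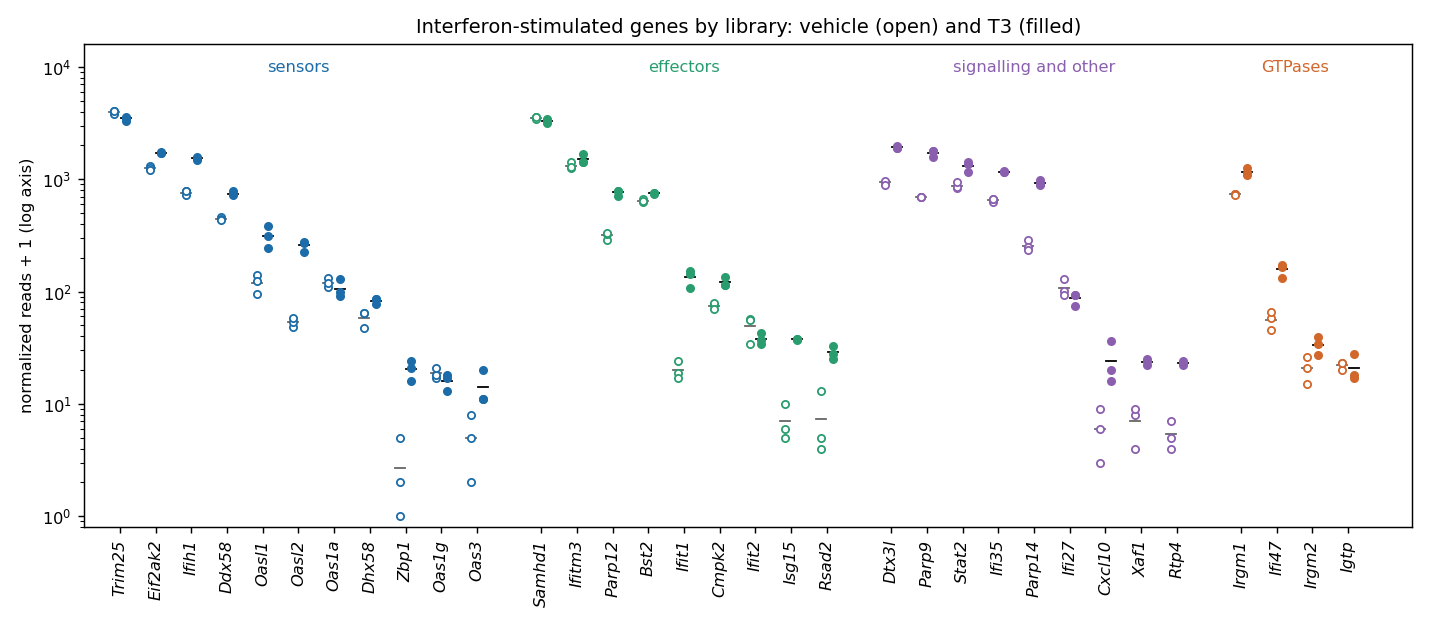
Normalized reads + 1 (log axis) of the 33 tested genes in each of the 3 vehicle libraries (open circles) and 3 T3 libraries (filled circles), by class, with short lines at the group means. The T3 libraries lie above the vehicle libraries at 25 genes, and Trim25 and Samhd1 are the 2 genes at which they lie below.

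Of 11 sensors tested, 8 were higher, 1 was lower and 2 were not called, with a median log2 fold change of 0.74. These counts stand beside 24.0% of all tested genes called higher and 20.8% lower. Zbp1 and Oas3 reached 10 reads in T3 libraries only, so their presence in the count and the median is no evidence of direction. Ifih1, which encodes MDA5, a sensor of long double-stranded RNA (gene ID 71586, mm10 chromosome 2, 62595793 to 62646255, minus strand, 16 exons), read 781, 716 and 779 normalized reads with vehicle and 1574, 1479 and 1550 with T3. The groups lie far apart beside their spread, with a 2.02-fold rise (log2 1.02 ± 0.05 SE, adjusted p = 5.44e-07). Ddx58, which encodes RIG-I, the sensor of short RNA with a 5′ triphosphate, read 456, 444 and 432 with vehicle and 733, 722 and 779 with T3 (log2 0.74 ± 0.06 SE, adjusted p = 8.88e-06). Eif2ak2, the kinase PKR that stops translation on binding double-stranded RNA, went from 1312, 1248 and 1217 to 1731, 1706 and 1697, a rise of 1.36-fold (adjusted p = 4.16e-05). In each of these 3 genes all T3 libraries were above all vehicle libraries. Dhx58, which encodes LGP2, the regulator of the other 2 helicases, read 46, 63 and 63 with vehicle and 84, 85 and 76 with T3. Its call (log2 0.52 ± 0.16 SE, adjusted p = 0.0279) was lost when vehicle replicate 1 (0.0871), T3 replicate 1 (0.0853) or T3 replicate 2 (0.0812) was left out, and when low values were not filtered (0.0525). Trim25, a ubiquitin ligase that helps RIG-I signal and the most abundant sensor gene, moved the other way, from 4031, 3822 and 4013 to 3520, 3321 and 3611 (log2 -0.18 ± 0.04 SE, adjusted p = 0.00734). It was the only gene of the 47 called lower. Zbp1, a sensor of Z-form nucleic acid that can start necroptosis, was close to silent with vehicle at 0, 4 and 1 reads and read 15, 20 and 23 with T3 (log2 3.22 ± 0.57 SE, adjusted p = 0.00137).

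The oligoadenylate synthetase family had both called and uncalled members. Enzymes of this family make the second messenger that activates RNase L, and Oasl1 and Oasl2 are relatives whose main roles lie elsewhere. Oasl2 (mm10 chromosome 5, 114896934 to 114912245) read 47, 52 and 57 with vehicle and 271, 274 and 226 with T3, a rise of 4.86-fold (log2 2.28 ± 0.13 SE, adjusted p = 8.16e-07). Its neighbour Oasl1 read 94, 138 and 124 with vehicle and 314, 383 and 243 with T3 (2.61-fold, adjusted p = 0.000224). For either gene the lowest value with T3 came from replicate 3, and it still exceeded every vehicle value. Oas1a read 130, 109 and 117 with vehicle and 127, 98 and 90 with T3, and the groups overlap (log2 -0.19, 95% interval -0.52 to 0.15, adjusted p = 0.344). Oas1g, at 16, 17 and 20 with vehicle and 17, 16 and 12 with T3, overlapped too (log2 -0.23, interval -0.80 to 0.34). Oas2 was at most 2 reads in every library and was not tested. Oas3, at 7, 4 and 1 with vehicle and 10, 10 and 19 with T3, was called higher (adjusted p = 0.031), but leaving out any single library other than vehicle replicate 1 gave an adjusted p of 0.0522 or more, and a replicate block gave 0.0582. Oas1a and Oas1g are close relatives side by side on chromosome 5, and how reads shared between such genes were counted is not given, so the level of each is uncertain.

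Of 9 effectors tested, 6 were higher, none was lower and 3 were not called, with a median log2 fold change of 0.68. Over all tested genes 24.0% were called higher and 20.8% lower. Isg15 reached the limit for testing in T3 libraries only, so its presence in the count and the median is no evidence of direction. The same holds for Rsad2, which among vehicle libraries reached that limit in replicate 2 only. Ifit1, which binds foreign RNA that lacks the host cap methylation (gene ID 15957, mm10 chromosome 19, 34640889 to 34650009), read 23, 18 and 16 with vehicle and 141, 152 and 106 with T3. That is a 6.69-fold rise with no overlap (log2 2.74 ± 0.20 SE, adjusted p = 4.62e-06). Isg15, a ubiquitin-like protein attached to other proteins (gene ID 100038882, mm10 chromosome 4, 156199424 to 156200818), was at 5, 4 and 9 with vehicle and at 36, 37 and 37 with T3 (log2 2.49 ± 0.31 SE, adjusted p = 0.000145). Rsad2, the radical enzyme viperin, was at 3, 12 and 4 and then at 27, 32 and 24 (log2 2.16, adjusted p = 0.00276). At these low levels the size depends on the pseudocount, and with 5 in place of 1 the log2 fold change was 1.95 for Isg15 and 1.60 for Rsad2. These 3 genes are hallmark targets of type I and type III interferon, and none of them exceeded 152 reads in any library. Parp12, an ADP-ribosyltransferase that restricts RNA viruses, read 287, 324 and 334 with vehicle and 791, 781 and 712 with T3 (2.41-fold, adjusted p = 1.43e-06). Cmpk2, a mitochondrial nucleotide kinase next to Rsad2 on chromosome 12, rose 1.61-fold from 74.0 ± 4.58 to 119.7 ± 11.5 (adjusted p = 0.00192).

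The abundant effectors differ from these by size of change. Bst2, or tetherin, which holds budding virions at the cell surface, read 628, 661 and 633 with vehicle and 738, 747 and 759 with T3, a rise of 1.17-fold (adjusted p = 0.00726). Ifitm3, which blocks virus entry from endosomes, had the highest level per exon length of the 47 genes, 2032 ± 143 normalized reads per kb with vehicle and 2312 ± 235 with T3. Its libraries overlapped, at 1423, 1253 and 1274 against 1410, 1410 and 1674 normalized reads (log2 0.18, interval 0.01 to 0.36, adjusted p = 0.0786), and the adjusted p was 0.0321 without vehicle replicate 1. Samhd1, which depletes the nucleotides that viruses need, read 3613, 3407 and 3599 with vehicle and 3403, 3153 and 3377 with T3. All T3 libraries were just below all vehicle libraries, and the difference was not called (log2 -0.10, adjusted p = 0.106) except with upper-quartile scaling (0.0222) or equal column totals (0.0125). Ifit2 did not follow its neighbour Ifit1, with 56, 33 and 55 reads against 36, 33 and 42 (log2 -0.33, interval -0.86 to 0.19, adjusted p = 0.274), although it was called lower without vehicle replicate 2 (0.0487). The difference between the 2 genes was not tested. The classical markers Mx1, Mx2, Ifit3 and Sp100 were at 0 to 14 reads in every library and were below the limit for testing. With no filter on low values Sp100 was called higher (adjusted p = 0.0288), and Mx1 (0.0505), Mx2 (0.130) and Ifit3 (0.315) were not.

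**Figure D2:**
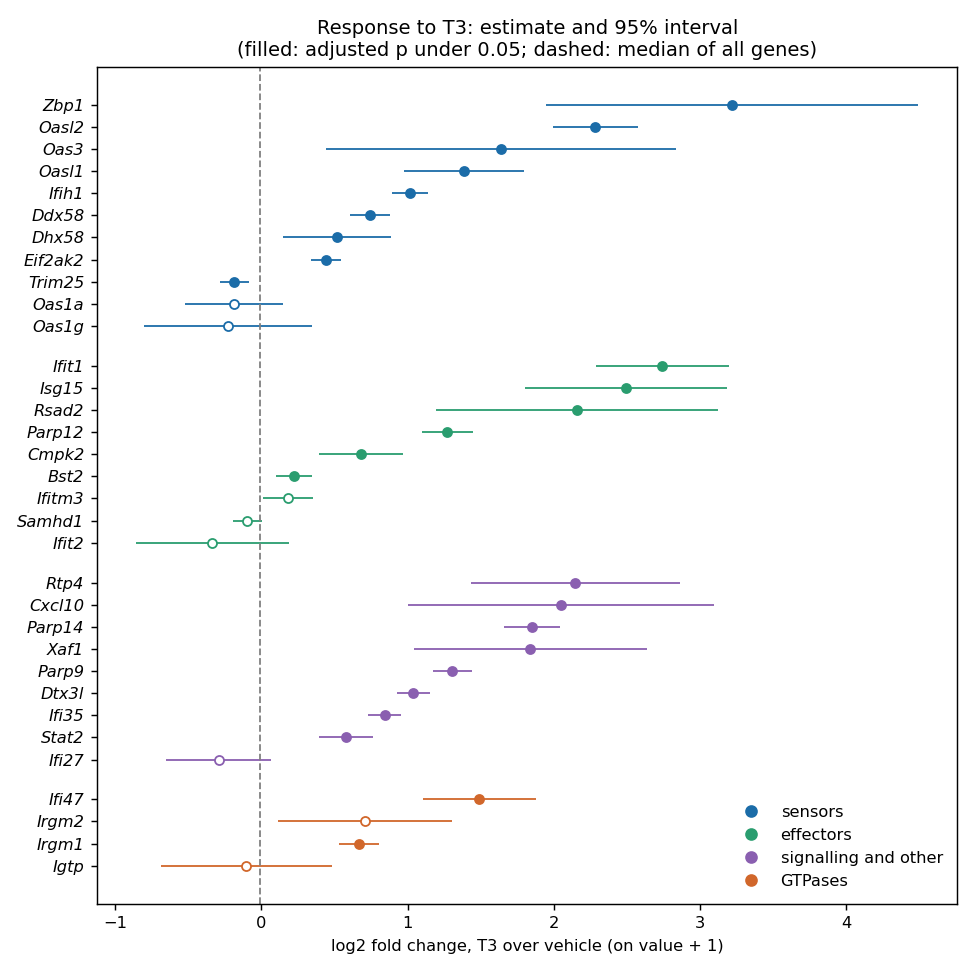
Log2 fold change of T3 over vehicle (on value + 1) for the 33 tested genes by class, with 95% intervals from limma. Filled points passed an adjusted p of 0.05, and the dashed line is the median of all genes tested, -0.01. Zbp1 and Oas3, which were nearly silent with vehicle, have the widest intervals.

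Of 9 genes of signalling and other roles tested, 8 were higher, none was lower and 1 was not called. These counts stand beside 24.0% of all tested genes called higher and 20.8% lower. The median log2 fold change of the 9 was 1.31. Of these, 3 genes, Xaf1, Rtp4 and Cxcl10, reached the limit for testing in T3 libraries only, so the filter itself fixed their direction. Their log2 fold changes (1.84, 2.15 and 2.05) all lie above that median, so the count and the median describe the genes tested and support no direction. Parp9, Dtx3l and Parp14 lie in a row on mm10 chromosome 16 between 35832878 and 35972621. Parp9, an ADP-ribosyltransferase that works as a complex with the ubiquitin ligase Dtx3l, read 690, 688 and 687 with vehicle and 1788, 1773 and 1561 with T3 (2.47-fold, adjusted p = 2.13e-07). Dtx3l read 952, 959 and 891 with vehicle and 1891, 1991 and 1880 with T3 (2.06-fold, adjusted p = 2.68e-07). Parp14, a further ADP-ribosyltransferase, read 284, 247 and 235 and then 903, 881 and 980 (3.61-fold, adjusted p = 2.07e-07). The 3 genes carry the smallest p-values of the 47, and in none of them did the groups overlap. Parp9 and Dtx3l start head to head and overlap by 558 bases, 334 of them exonic, and as the sources used here do not say whether counting used strand, reads in the overlap cannot be told apart. Parp14 overlaps no other listed gene.

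Stat2, the factor that carries type I and type III interferon signals to the ISRE (gene ID 20847, mm10 chromosome 10, 128270576 to 128292849), read 834, 844 and 943 with vehicle and 1365, 1411 and 1151 with T3. All T3 libraries were higher, T3 replicate 3 least so (1.49-fold, adjusted p = 0.000347). Ifi35, a partner of Nmi in cytosolic complexes, rose 1.79-fold from 624, 659 and 660 to 1154, 1177 and 1158 (adjusted p = 1.12e-06). Xaf1, a promoter of apoptosis, was at 3 to 8 reads with vehicle and 21 to 24 with T3. Rtp4, a receptor chaperone, was at 3 to 6 and then 21 to 23, and the chemokine Cxcl10 at 2 to 8 and then 15 to 35. Each of the 3 was called higher, with adjusted p-values of 0.00234, 0.000473 and 0.00565, at levels where a single read matters. Ifi27, a mitochondrial protein, did not rise, at 101, 127 and 92 against 93, 93 and 74 (log2 -0.29, interval -0.65 to 0.07). Usp18, which removes Isg15 from proteins and damps the type I receptor, and Ifi44 stayed at 2 to 9 reads and were not tested.

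The interferon-gamma type GTPases were mostly silent, and Irgm1 and Ifi47 made up nearly all of their signal. Gbp5, Iigp1 and Tgtp1 were listed at 0 in all 6 libraries. A listed 0 allows up to 3 reads in a library, counting error only. Gbp2 was at 2, 0 and 0 reads with vehicle and 8, 6 and 6 with T3, Gbp3 at 0 to 2 and 4 to 6, Gbp6 at 0 to 2 and 3 to 6, and Gbp7 at 4 to 6 and 7 to 18. In these 4 genes every T3 library was above every vehicle library, but all were under the limit of 10 reads in 3 libraries and were not tested. With no filter on low values Gbp2 (adjusted p = 0.00735) and Gbp3 (0.0202) were called higher, and Gbp6 (0.0626) and Gbp7 (0.0675) were not. Tgtp1 has a near-identical copy, Tgtp2, also listed at 0, and how reads that fit both were counted is not given.

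Of 4 GTPases tested, 2 were called higher and none lower, where 24.0% of all tested genes were called higher and 20.8% lower. Irgm1, which acts on vacuoles and in autophagy (gene ID 15944, mm10 chromosome 11, 48865249 to 48871346), read 739, 730 and 721 with vehicle and 1129, 1094 and 1262 with T3. The groups are well apart (1.59-fold, log2 0.67 ± 0.06 SE, adjusted p = 2.17e-05). Ifi47, a further immunity-related GTPase on chromosome 11 that overlaps the near-silent Olfr56 by 90 exon bases, read 57, 65 and 44 with vehicle and 173, 132 and 164 with T3 (2.81-fold, adjusted p = 9.66e-05). Irgm2 was at 20, 14 and 25 and then at 33, 26 and 38. Its T3 libraries were all above its vehicle libraries, and the difference just missed the threshold (log2 0.71 ± 0.26 SE, adjusted p = 0.0531), passing it under 5 of the 15 alternatives run for it. Igtp, which lies beside Irgm2, read 19, 22 and 22 with vehicle and 27, 16 and 17 with T3, and the groups overlap (log2 -0.10, interval -0.69 to 0.48).

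Set side by side, the antiviral genes and the GTPases differed in how many were expressed. Of the 25 sensors and effectors 20 were tested, 14 were called higher and 1 lower, with a median log2 fold change of 0.71 and a range of -0.33 to 3.22. Over all tested genes 24.0% were called higher and 20.8% lower. Of the 11 GTPases 4 were tested, with a median of 0.69 and a range of -0.10 to 1.49. Through filtering, 3 of the 20 antiviral genes and none of the 4 GTPases reached the limit in T3 libraries only, so the medians describe the genes tested and support no direction. The difference in response between the classes was not tested.

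**Figure D3:**
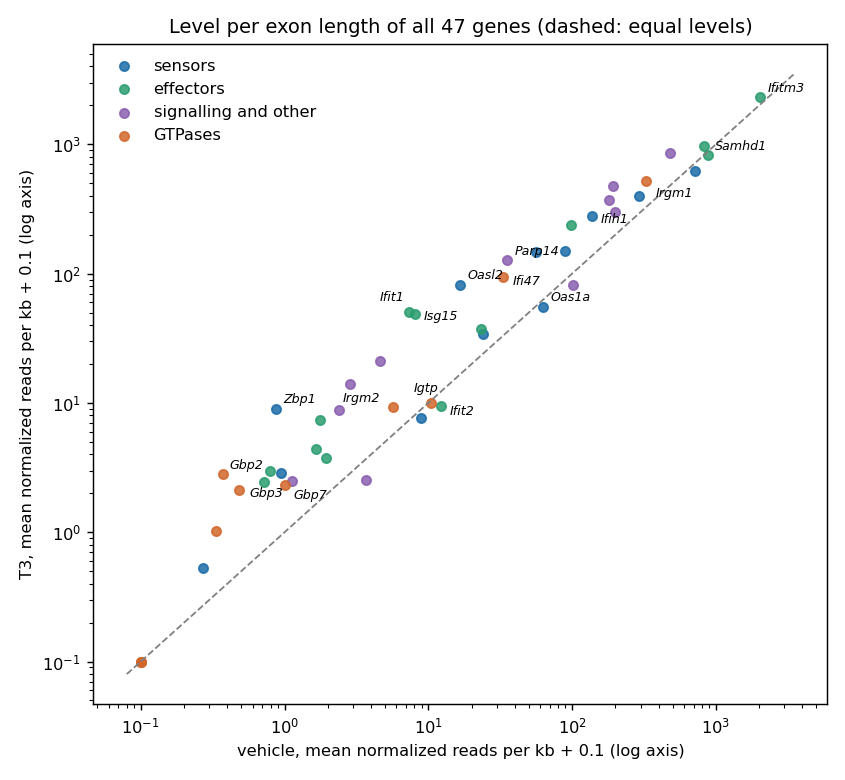
Mean normalized reads per kb of exon + 0.1 with vehicle (horizontal, log axis) and with T3 (vertical, log axis) for all 47 genes, n = 3 libraries per mean, coloured by class. Most genes lie above the dashed line of equal levels, and the GTPases other than Irgm1 and Ifi47 lie at the low end, with 3 of them at 0.

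Per exon length the class totals moved by different amounts. The 12 sensors summed to 1418, 1372 and 1407 normalized reads per kb with vehicle and to 1821, 1780 and 1767 with T3, a ratio of group means of 1.28, and Trim25, the gene called lower, held 50.8% of the vehicle total and 35.0% of the T3 total. The 13 effectors summed to 4061, 3797 and 3849 and then to 4403, 4345 and 4788, a ratio of 1.16. For the effectors, Ifitm3 alone held 52.1% of the vehicle total and Samhd1 and Bst2 held 22.6% and 21.4%, so this sum follows 3 genes that moved little. The GTPases summed to 384, 383 and 369 with vehicle and 643, 592 and 692 with T3, a ratio of 1.70, and Irgm1 held 86.6% of the vehicle total and 81.2% of the T3 total. The signalling and other class had the largest ratio of the 4, 1.89, from 1176, 1225 and 1196 to 2301, 2319 and 2162, and Ifi35 held 39.7% of its vehicle total. The vehicle and T3 libraries did not overlap in any class sum.

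**Figure D4:**
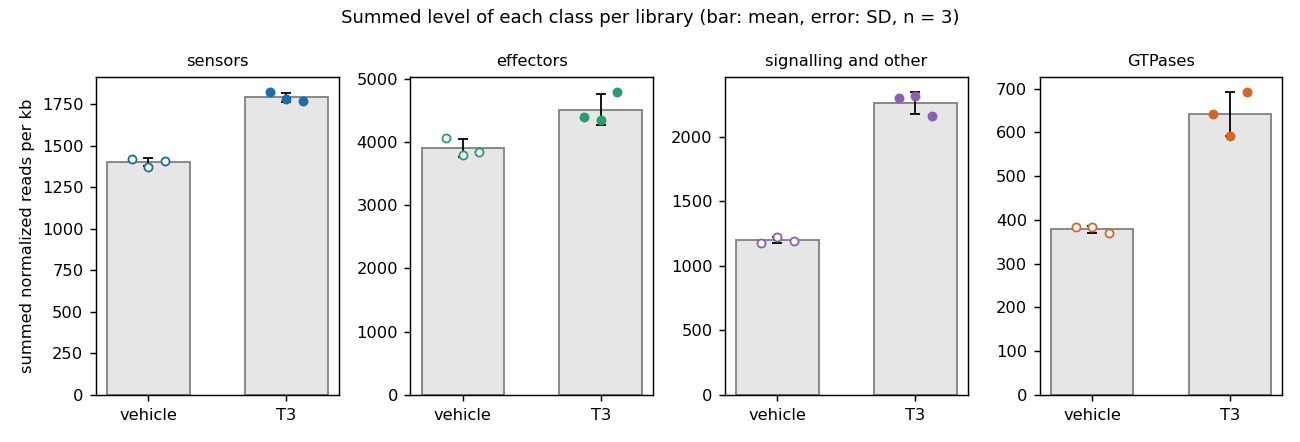
Summed normalized reads per kb of exon for each class (12 sensors, 13 effectors, 11 genes of signalling and other roles, 11 GTPases), with 1 point per library, bars at the mean and error bars of 1 SD (n = 3). The vertical axes start at 0 and differ between panels, and T3 libraries are above vehicle libraries in each panel.

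The ISRE letters stood both in genes that rose and in genes that did not pass the test. Of 19 promoters of genes called higher, 11 held the ISRE letters (57.9%), and of 8 promoters of genes tested but not called, 5 held them (62.5%), and these 8 belong to 7 genes because Ifit2 has 2 promoters without the letters. The difference was not tested. Parp12, Dtx3l, Oasl1 and Oasl2 rose without these letters in the window, while Oas1a, Oas1g, Igtp, Irgm2 and Ifitm3 hold them and were not called. GAS letters stood in 3 of the 19 and in 6 of the 8.

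All 10 interferon genes looked for, among them Ifnb1 and Ifna1, were listed at 0 in every library. The counts for the rest of the pathway stand beside 44.8% of all tested genes called in either direction. Of the 6 receptor genes Ifnar2, a subunit of the type I receptor, was called lower (340, 357 and 413 with vehicle, 326, 300 and 303 with T3, adjusted p = 0.0446), and the other 5 were not called. Ifnar2 is not called in the authors' deposited table (adjusted p = 0.0899), and no alternative was run for it. Of 11 kinases, STATs and brakes 4 were higher and 2 lower. Jak1 rose 1.27-fold, from 4916, 4517 and 4786 to 6127, 6152 and 5729, and Jak2 rose 1.34-fold. Socs3, an inhibitor of JAK signalling, fell 2.15-fold, from 236, 315 and 286 to 135, 125 and 125 (adjusted p = 5.8e-05). The kinases moved less than Socs3 did.

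Among receptors, kinases, STATs, brakes, adaptors and transcription factors of the pathway, Irf1 changed most. Of 8 interferon regulatory factors 5 were higher and 2 lower. Irf1, which responds to interferon-gamma and to other stimuli, rose 6.63-fold, from 684, 672 and 761 to 4827, 4503 and 4714 (log2 2.73 ± 0.06 SE, adjusted p = 1.48e-09). Irf7, the amplifier of the type I response, read 65, 87 and 101 with vehicle and 214, 209 and 196 with T3 (2.47-fold, adjusted p = 0.000123), and Irf9, the DNA-binding partner of Stat2, rose 1.60-fold (adjusted p = 1.04e-05). In the group of 10 sensing adaptors and kinases 4 were higher and none lower, among them the endosomal RNA sensor Tlr3 (2.11-fold), its adaptor Ticam1 (1.57-fold) and Tmem173, which encodes STING (2.91-fold, from 38, 28 and 24 to 95, 93 and 76).

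Among 46 other interferon-stimulated genes 28 were tested, 16 were higher and 5 lower, with a median log2 fold change of 0.39. Psmb8, a subunit of the immunoproteasome, rose 7.21-fold, from 134, 110 and 135 to 995, 870 and 879. Uba7, the enzyme that activates Isg15 for attachment, rose 3.65-fold, Nmi, the partner of Ifi35, 2.21-fold, and Lgals9, a galectin, 2.09-fold to 18017 ± 487. Of the 5 that fell, Slfn2, Oas1b and Herc6 (3.29-fold, 2.69-fold and 1.72-fold lower) are named here after their values were seen. Ifi27l2b was down 1.69-fold and Ifitm2, a relative of Ifitm3, down 1.62-fold from 3848 ± 86.5 to 2370 ± 88.4 (adjusted p = 1.13e-06).

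**Figure D5:**
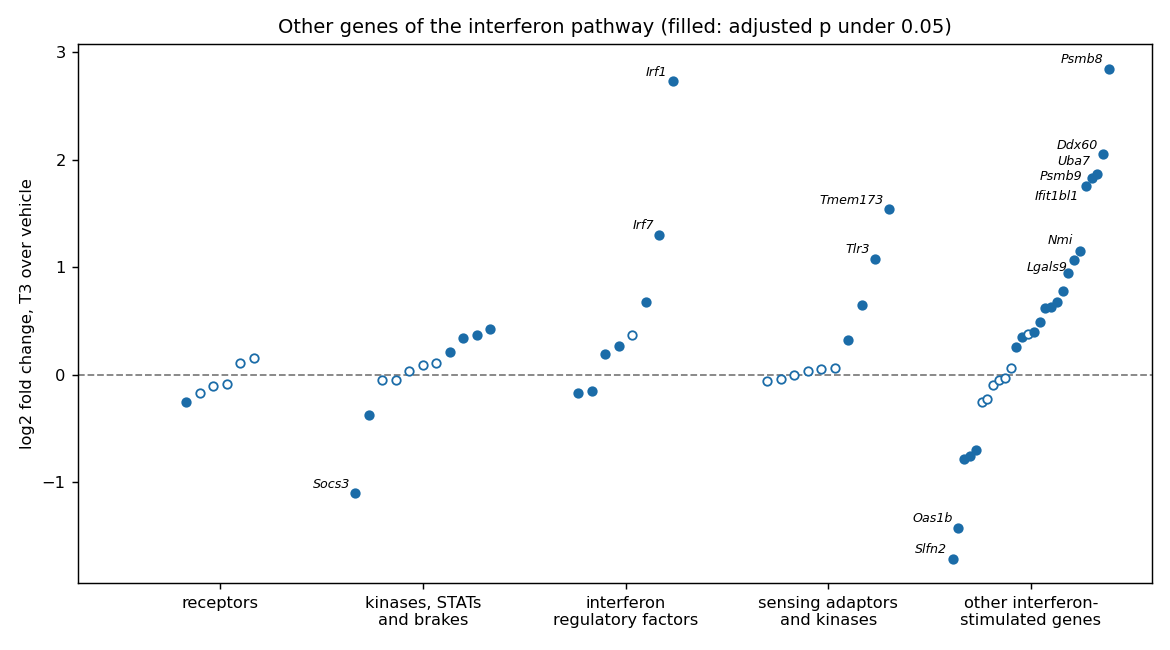
Log2 fold change of T3 over vehicle for tested genes of 5 pathway lists, with 1 point per gene and filled points for an adjusted p under 0.05. Receptors lie near the dashed line (the median of all genes, -0.01), and Irf1 and Psmb8 lie far above it and Socs3 far below.

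Markers of other cell types were mostly low. Of 19 leukocyte markers 11 were listed at 0 everywhere, including Gzmb, and Ptprc and Cd3e were at 0 to 3 reads. The list summed to 73.2 to 86.4 normalized reads per kb with vehicle and 119 to 143 with T3, and Itgam, the only marker of it that was called, went from 20.8 to 74.5 per kb of that sum (97.3 ± 15.2 to 349 ± 7.55 normalized reads, adjusted p = 2.2e-06). Fibroblast and smooth muscle markers summed to 139 to 181 and 109 to 148, with none called, and endothelial and neural markers to 102 to 114 and 72.7 to 92.4, with Lyve1 called lower. What part these cells have in the rises above was not tested.

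The authors' deposited table, made from the same 6 libraries, gives nearly the same picture. At the same threshold it has 23 of the 47 genes higher and 1 lower, where 19.3% of its genes with an adjusted p were higher. Of these, 22 were called higher here too, and 5 of the 47 carry no adjusted p in the authors' deposited table. Dhx58 and Oas3 were called here only, with adjusted p-values of 0.0959 and 0.0930 from the authors. The GTPase Gbp2, not tested here, was called higher by the authors only (adjusted p = 0.0484).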

How the data were processed

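Transcripts of intestinal organoids were sequenced in 6 libraries. The labels' protocols give total RNA and directional libraries, with 3 vehicle and 3 T3 libraries. Per the submitters' processing notes the tools were STAR, Subread and DESeq2, with no versions. Whether reads were counted by strand is not given in the sources consulted, and mm10 (GRCm38) is the build per the file headers. The value the authors deposited for each gene and library is a normalized score, read numbers made comparable across libraries and given as whole numbers. Whether it was rounded or cut to a whole number is not known. This score is not a count, since the deposited mean column equalled the mean of the 6 columns to within 0.833 normalized reads. The authors deposited log2 fold changes and adjusted p-values beside them. Totals were 28197080 to 29974091 normalized reads, and no count model was used.

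A gene was tested where 3 or more libraries reached 10 normalized reads, on log2(value + 1) with limma 3.58.1 in R 4.3.3 (trended moderation, Benjamini-Hochberg over 13052 genes, no replicate block). The test was checked on simulated data. Every gene of the 47 could be named. From each other list the called genes with the smallest p (up to 6) were named, or the 2 with the highest mean, plus called cell type markers, Ptprc, Cd3e, Gzmb and Klf9. The genes and lists were chosen with earlier results of these data known. Levels between genes were compared per kb of exon. Alternatives were other scalings, filters, pseudocounts and variance models, a replicate block and leaving out each library. Promoters came from RefSeq (GRCm38.p6) by gene ID, with none held for Dhx58, Zbp1, Oas2, Mx1, Mx2, Gbp6, Iigp1, Usp18, Parp9, Parp14, Ifi27 and Rtp4.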

Additional observations from a re-analysis of the deposited data

How the results depend on the processing

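Of the 25 genes called among the 47, 23 kept their call under every alternative that tested them, and 32 of the 33 tested genes kept their direction. The exceptions were Dhx58 and Oas3, whose calls were lost as given above, and Igtp, which was not called and ranged from a log2 fold change of -0.33 (without T3 replicate 1) to 0.0323 (without T3 replicate 2, the reversed direction). Genes of the 47 called lower were 2 instead of 1 under upper-quartile scaling or equal column totals, as were sensors and effectors called lower (2 instead of 1), and both counts were 1 to 2 without single libraries (2 without vehicle replicate 2). The added gene is Samhd1 with either scaling and Ifit2 without that library. GTPases called higher were 4 instead of 2 with no filter, because 8 instead of 4 were tested. The median log2 fold change of sensors and effectors was 0.64 with upper-quartile scaling, 0.62 with equal column totals, 0.86 with no filter, 0.60 with a filter of 50 reads, 0.70 with a pseudocount of 5, and 0.66 to 0.74 without single libraries. With filters on the mean over 6 libraries, chosen after seeing the data, it was 0.68 at a mean of 10 and 0.60 at a mean of 50. The GTPase median was 1.24 with no filter, 1.08 with a filter of 50 reads and 1.08 at a mean of 50 (2 genes tested). Apart from the number of genes tested, the cause was not tested. Scaling moved the median of all genes by -0.05 (upper-quartile) and -0.07 (equal totals). Libraries with the same number did not deviate together (correlations of -0.07, 0.03 and -0.06 across genes), so the numbers were not taken as pairs, and with the replicate block 24 genes were called higher and 1 lower, with Oas3 lost and Irgm2 gained. Genes under about 10 normalized reads are limited by depth.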

Other observations

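Close relatives of the genes described went in different directions. The 4 genes given here were chosen after their values were seen. Oas1b, a relative of Oas1a, fell from 34, 40 and 28 normalized reads to 14, 12 and 10 (log2 -1.43 ± 0.25 SE, adjusted p = 0.00119). Its relatives Oas1a and Oas1g were not called, and Oasl2 rose. Slfn2, a Schlafen family gene, fell from 130, 109 and 125 to 31, 33 and 46 (adjusted p = 4.73e-05). Ifit1bl1, on chromosome 19 as Ifit1 is, rose from 12, 26 and 16 to 62, 72 and 49 (adjusted p = 0.000812), and Ddx60, a helicase that helps RIG-I, rose 4.15-fold from 34.7 ± 5.13 to 146.3 ± 10.8. How reads shared among relatives such as Oas1a and Oas1b were counted is not given.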
